A study of Mus musculus with 34 samples.

Results

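Cholesterol and fatty acid synthesis was followed through 28 named genes in RNA-seq libraries. The libraries were of mouse embryonic stem (ES) cells that lack members of the MTA family and of their controls. The genes were chosen by symbol for their place in the pathway, with earlier results of these data known. MTA1, MTA2 and MTA3 are related subunits of the NuRD chromatin remodelling complex. All 28 genes were listed in both tables of genes, which hold 48709 genes in the second set and 22018 in the single-mutant set, and all 28 passed the filter on low counts in every comparison. The libraries came from 129/Ola ES cells. In the second set, Mta123∆ cells carry deleted Mta1 alleles, Mta2 alleles deleted or replaced by a puromycin cassette, and Mta3 alleles deleted by Cre. The genotype of the Control cells is uncertain, since the study calls them wild type in places and elsewhere describes control cells with loxP-flanked Mta3 alleles and 1 deleted Mta1 allele, and the labels say only Control. Each genotype was sequenced as 4 libraries labelled 2i+LIF (2iL, inhibitors of Mek and Gsk3 with the cytokine LIF) and 4 libraries labelled 48 h in N2B27 medium without inhibitors or LIF, and the 4 come as 2 libraries from each of 2 lines. Single mutants were each sequenced beside their own control, 3 libraries to a genotype and all labelled 2iL, namely Mta1_del/del beside Mta1_flox/flox, Mta2_KO beside Mta2_WT, and Mta3_del/del beside Mta3_flox/flox. The Mta2_KO libraries came from a single line, and no label states that the libraries of a group are separate cultures, so that p-values measure the spread between these libraries, which may be technical.

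Cholesterol is made from acetyl-CoA through the mevalonate arm, which ends in farnesyl pyrophosphate, then through squalene and lanosterol, and finally through a series of demethylation, reduction and isomerisation steps. Transcription of most of these enzymes is controlled by SREBP2, the product of Srebf2, while SREBP1, the product of Srebf1, acts more on fatty acid synthesis. Both factors are held in the endoplasmic reticulum by INSIG proteins when sterols are plentiful and are cut free when sterols run low. They bind sterol response elements (SRE) near start sites and act together with the general factors NF-Y and Sp1. Mouse ES cells divide rapidly and make membrane lipids continuously.

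Promoter sequence was looked up because many of these genes moved together. RefSeq windows of GRCm38.p6 were held for 22 of the 28 genes, and none for Fdps, Fdft1, Sqle, Stard4, Scd1 and Scd2. Where a gene had several windows, a match in any of them counted. The 250 bases before each start were searched on both strands for an SRE (TCACNCCAC), an NF-Y box (CCAAT) and a Sp1 box (GGGCGG). No match of 1 motif overlapped a match of another. An NF-Y box was present in 18 of the 22 genes and in 37.5% of all 27025 genes with a window, and a Sp1 box in 18 of 22 against 35.4%. Both boxes were present in 16 of 22 genes against 13.8%. The SRE letters were found in Hmgcs1 alone of the 22, against 1.22% of all genes. Only these exact letters counted, so that the absence of a match does not show that a gene lacks an SRE. Since 78.6% of the genes had a window, under the 80% set as the minimum, a comparison of the list with all promoters is void and these shares describe the 22 genes only. The 6 windows below belong to genes with large changes in the second set, namely Lss, Hmgcs1, Mvd and Hsd17b7, which were lower in Control libraries labelled 48 h, Ebp, which was higher there, and Tm7sf2, which was lower in Mta123∆. Capitals mark every match on either strand, and each sequence reads 5′ to 3′ on the strand of its gene.
Lss promoter, chr10:76531355-76531604, plus strand: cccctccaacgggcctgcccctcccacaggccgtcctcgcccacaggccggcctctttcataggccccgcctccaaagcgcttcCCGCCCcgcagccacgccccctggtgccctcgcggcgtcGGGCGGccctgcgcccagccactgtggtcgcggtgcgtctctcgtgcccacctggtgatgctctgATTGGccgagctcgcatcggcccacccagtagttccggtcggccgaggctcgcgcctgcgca
Hmgcs1 promoter, chr13:119690101-119690350, plus strand: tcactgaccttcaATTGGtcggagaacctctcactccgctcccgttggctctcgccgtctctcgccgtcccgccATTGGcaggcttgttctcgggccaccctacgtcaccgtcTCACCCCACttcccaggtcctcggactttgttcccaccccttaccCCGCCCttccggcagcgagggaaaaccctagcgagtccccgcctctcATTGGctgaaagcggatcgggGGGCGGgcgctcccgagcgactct
Mvd promoter, chr8:122443423-122443672, minus strand: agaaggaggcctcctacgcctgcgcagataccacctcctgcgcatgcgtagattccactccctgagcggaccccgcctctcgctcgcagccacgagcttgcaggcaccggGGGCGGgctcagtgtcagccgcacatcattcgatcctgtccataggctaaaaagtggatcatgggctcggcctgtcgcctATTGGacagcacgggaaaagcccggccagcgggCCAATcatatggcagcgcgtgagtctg
Hsd17b7 promoter, chr1:169969206-169969455, minus strand: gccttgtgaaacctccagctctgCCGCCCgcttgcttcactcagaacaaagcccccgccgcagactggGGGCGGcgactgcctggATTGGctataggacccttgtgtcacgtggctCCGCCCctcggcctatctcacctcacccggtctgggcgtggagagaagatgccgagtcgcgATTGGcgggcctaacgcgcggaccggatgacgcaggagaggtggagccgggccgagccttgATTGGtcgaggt
Ebp promoter, chrX:8193513-8193762, minus strand: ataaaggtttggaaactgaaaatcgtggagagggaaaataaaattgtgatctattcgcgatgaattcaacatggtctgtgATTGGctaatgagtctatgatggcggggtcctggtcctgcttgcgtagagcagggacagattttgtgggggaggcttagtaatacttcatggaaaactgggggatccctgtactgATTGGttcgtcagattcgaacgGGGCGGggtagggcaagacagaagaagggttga
Tm7sf2 promoter, chr19:6067851-6068100, minus strand: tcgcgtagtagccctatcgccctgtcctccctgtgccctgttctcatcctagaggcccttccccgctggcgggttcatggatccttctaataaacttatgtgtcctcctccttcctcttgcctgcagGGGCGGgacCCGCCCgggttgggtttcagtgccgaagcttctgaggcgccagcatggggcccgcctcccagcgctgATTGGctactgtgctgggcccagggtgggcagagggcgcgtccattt

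The NF-Y and Sp1 boxes were thus present both in genes that were lower and in Ebp, which moved the other way. In Hmgcs1, the enzyme that condenses acetoacetyl-CoA with acetyl-CoA, the SRE match lies 137 to 129 bases before the start. Fasn, for which no window is printed, held 3 NF-Y boxes and no Sp1 box, and Acaca and Elovl6 held none of the 3 motifs in their windows. The only Acaca window, chr11:84195188-84195437, lies inside the gene, whose annotated start is 84129672. The only Tm7sf2 window, printed above, also lies inside its gene, whose annotated start on the minus strand is 6068373. In these genes the sequence before the annotated start was not searched. Dhcr7, Pmvk and Srebf1 had windows inside the gene beside that at the annotated start. The NF-Y boxes of Dhcr7 and the Sp1 boxes of Srebf1 lie only in windows inside the gene.

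Total counts ran from 37855790 to 57602285 in the second set and from 13105820 to 40613585 in the single-mutant set. Each of the 28 genes had at least 190 counts, and at least 10.6 CPM (counts per 1000000 counts in genes), in every library. Values below are CPM scaled by TMM, and fold changes and adjusted p-values come from edgeR's quasi-likelihood test with Benjamini-Hochberg adjustment over all genes tested. Mta2 counts checked the labels of genotype, at 4.72 to 10.4 CPM in Mta123∆ libraries against 111.2 to 201.5 CPM in Control and 8.72 to 11.3 CPM in Mta2_KO against 219.5 to 235.4 CPM in Mta2_WT. The culture labels of the second set went against the cells' own markers. Summed CPM of 8 naive pluripotency genes ran from 157.5 to 243.9 in Control libraries labelled 2iL and from 3678 to 4055 in those labelled 48 h. Summed CPM of 6 formative genes ran from 1326 to 1930 and from 107.6 to 125.7. All 8 naive genes were higher, and all 6 formative genes lower, in the libraries labelled 48 h of Control cells, and 8 and 5 in Mta123∆. The single-mutant libraries, all labelled 2iL and scaled apart, had naive sums of 3325 to 6120 CPM and formative sums of 122.8 to 340.7 CPM. The names under which the counts were deposited also give the opposite culture, whereas the sample titles match the labels. Groups are therefore named as labelled, and exchanging the labels would reverse every change between cultures and swap the comparisons of genotypes. Where a gene is said below to fall, rise or drop between labels, the direction follows the labels alone. In bulk RNA, fewer cells of a type and less RNA per cell cannot be told apart.

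The most abundant of the 28 transcripts per length in Control labelled 2iL was Scd2, a stearoyl-CoA desaturase, at 397 ± 29.1 RPKM (CPM divided by the exon length in kilobases; SD, n = 4). Acly, which makes cytosolic acetyl-CoA from citrate, followed at 138 ± 3.38 RPKM, and Hmgcs1 at 126 ± 18.9 RPKM did not differ from it beyond this spread. At the other end stood Ebp, the sterol isomerase, at 6.28 ± 0.388 RPKM and Stard4, a sterol carrier, at 5.53 ± 0.211 RPKM. Some values are uncertain because genes share sequence. Fdps shares 26.7% of its exon bases with Gm43738 on the same strand and Tm7sf2 12.1% with Vps51. Acat2, Idi1, Scd1 and Scd2 have close copies between which counting can split reads. Fdft1 shares 18.3% with Ctsb, and Hmgcs1 12.1% with Gm48342, on the opposite strand, and the strand setting of the counting is not given in the sources used here.

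The comparison of libraries labelled 48 h with libraries labelled 2iL asked how the pathway differed between self-renewing cells and cells leaving that state. In Control cells, 21 of the 28 genes were lower and 4 higher in the libraries labelled 48 h, where 29% of all 21240 genes tested were lower and 29.5% higher. The median log2 fold change over the 28 was -0.42, against 0.01 over all genes tested. The sterol enzymes made up most of the decrease. All 7 genes of the mevalonate arm and all 3 between squalene and lanosterol were lower, with medians of -0.49 and -0.72. Of 8 genes between lanosterol and cholesterol 6 were lower and Ebp was higher. The fatty acid genes were divided, with Acaca and Scd2 lower, Acly and Scd1 higher, and Fasn and Elovl6 not past the threshold.

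Lss, the cyclase that closes lanosterol, had 280.1, 274.1, 246.9 and 219.6 CPM in the 4 Control libraries labelled 2iL and 84.6, 78.0, 92.9 and 81.6 CPM in those labelled 48 h. The groups stood far apart, and the log2 fold change was -1.58 ± 0.08 (SE; adjusted p = 5.6e-08). Hsd17b7, a sterol ketoreductase, had 46.0, 40.2, 43.5 and 38.7 CPM against 22.6, 19.2, 20 and 19.1 CPM, a log2 fold change of -1.04 ± 0.08. Mvd, which makes isopentenyl pyrophosphate, had 79.2, 80.3, 90.9 and 89.0 CPM against 36.3, 35.6, 47.4 and 49.8 CPM, a log2 fold change of -0.99 ± 0.11. In each of these genes no library labelled 48 h reached the lowest library labelled 2iL.

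Hmgcs1 fell from 624.1, 682.7, 504.8 and 512.3 CPM to 324.8, 308.9, 309.3 and 275.4 CPM (log2 fold change -0.92 ± 0.10). Acaca, the carboxylase that makes malonyl-CoA for fatty acid synthesis, fell from 148.5, 149.2, 145.0 and 151.2 CPM to 73.7, 75.5, 80.7 and 83.8 CPM (log2 fold change -0.91 ± 0.06). The groups did not overlap in either gene, although both Hmgcs1 libraries of Control line 2 labelled 2iL lay below both of line 1. Against this trend Ebp, which shifts a double bond late in the pathway, rose from 13.4, 15.2, 14.1 and 15.2 CPM to 48.3, 51.7, 52.7 and 50.6 CPM. Its log2 fold change of 1.82 ± 0.06 was the largest of the 28 in this comparison (adjusted p = 3.3e-09).

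The regulators were split as well. Insig1, the sterol-dependent anchor and itself an SREBP target, had 374.9, 409.7, 311.2 and 308.6 CPM labelled 2iL and 270.2, 264.7, 258.2 and 246.1 CPM labelled 48 h, a log2 fold change of -0.42 ± 0.09. Srebf2 had 204.5, 220.9, 185.8 and 200.4 CPM against 178.8, 158.7, 161.5 and 174.4 CPM, a smaller log2 fold change of -0.25 ± 0.07. Srebf1 moved the other way, from 86.7, 89.7, 90.7 and 100.9 CPM to 114.9, 112.7, 110.9 and 130.9 CPM, a log2 fold change of 0.37 ± 0.07. In all 3 the groups did not overlap. The remaining sterol genes that passed lay between -0.75 for Fdps and -0.25 for Cyp51. Cyp51, Nsdhl and Scd2 overlapped between the labels, and their calls were lost in 5, 4 and 5 of the 8 fits that leave out a library.

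With the replicate number as a block, since the same lines carry both labels, Fasn joined the genes that were lower (log2 fold change -0.17, adjusted p = 0.04), and no call was lost, where 63.9% of all genes passed in either direction. Scaling by the spike-in RNAs shifted the median of all genes by 0.18 and left 9 lower and 3 higher, where 45.5% of all genes passed. The naive and formative marker sums given above moved with the same labels, and their part in these changes was not tested.

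**Figure D1:**
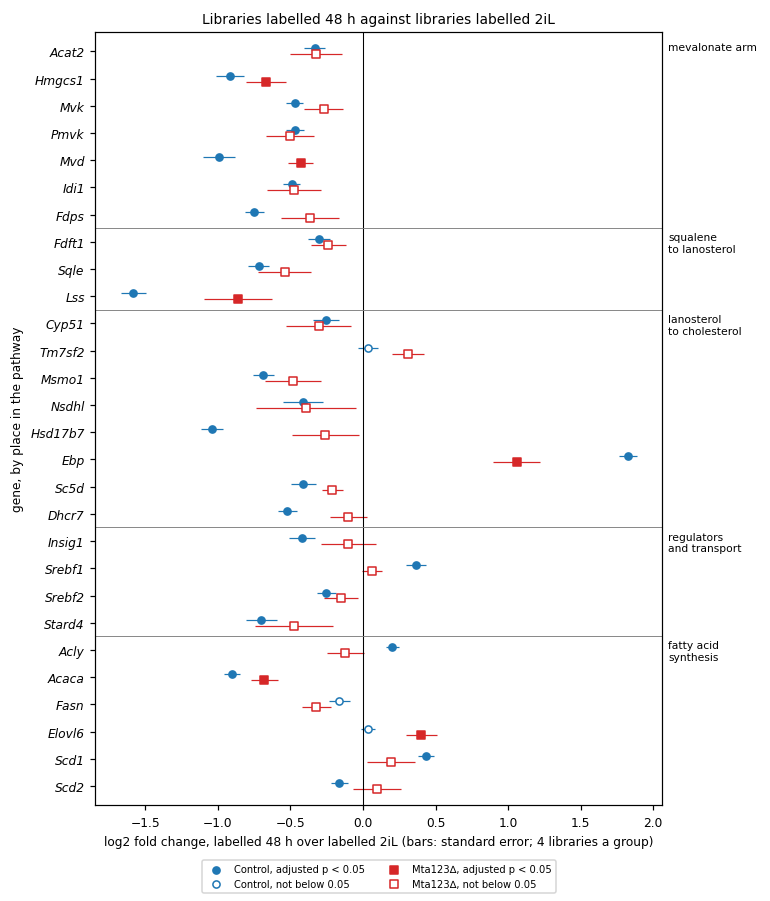
Log2 fold change of the 28 genes between libraries labelled 48 h and labelled 2iL (horizontal axis), by place in the pathway (vertical axis), for Control (circles) and Mta123∆ (squares), with standard errors, 4 libraries a group; filled symbols have an adjusted p under 0.05. All mevalonate arm genes lie left of 0 in both genotypes, with 7 filled circles, and Ebp lies right of 0 at 1.82 in Control and 1.06 in Mta123∆.

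In Mta123∆ cells the same comparison called 4 genes lower and 2 higher, where 10% of all 21505 genes tested were lower and 12.4% higher, and the median over the 28 was -0.29. The genes past the threshold were Lss, Acaca, Hmgcs1 and Mvd, which were lower, and Ebp and Elovl6, which were higher. With the replicate number as a block, 18 genes were lower and 4 higher, and each of the 6 calls was kept, while the share of all genes that passed in either direction rose to 42.5%. With the libraries of a line summed, which leaves 2 samples a group, none of the 28 and 0% of all genes passed, and 4 of the 28 had an unadjusted p under 0.05.

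Lss had 127.5, 133.9, 217.3 and 200.3 CPM in Mta123∆ libraries labelled 2iL and 76.4, 69.6, 119.1 and 109.6 CPM in those labelled 48 h. Its log2 fold change was -0.86 ± 0.24 (adjusted p = 0.031), and the call was lost without library 2_1 or 2_2 labelled 2iL or library 1_1 or 1_2 labelled 48 h. Acaca had 96.8, 102.3, 114.5 and 123.0 CPM against 63.5, 64.4, 71.9 and 73.6 CPM, a log2 fold change of -0.68 ± 0.09. Hmgcs1 had 401.5, 382.9, 573.2 and 519.7 CPM against 288.4, 267.4, 313.7 and 314.2 CPM, a log2 fold change of -0.67 ± 0.14. In all 3 genes every library labelled 48 h lay below every library labelled 2iL.

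Mvd had 49.0, 50.2, 62.3 and 54.9 CPM against 41.3, 40.6, 40.3 and 38.9 CPM, a log2 fold change of -0.43 ± 0.09. Ebp rose from 20.4, 20.8, 12.9 and 13.8 CPM to 36.2, 36.4, 35.1 and 34.2 CPM, a log2 fold change of 1.06 ± 0.16. Elovl6, which elongates palmitate, had 356.8, 326.8, 314.3 and 295.9 CPM against 463.6, 488.0, 366.7 and 398.2 CPM, a log2 fold change of 0.40 ± 0.10, lost in 5 of the 8 fits that leave out a library. The regulators overlapped between the labels. Insig1 had 197.9, 195.4, 286.0 and 274.2 CPM against 172.8, 190.5, 275.6 and 252.8 CPM. Srebf1 had 114.9, 123.1, 105.3 and 111.6 CPM against 112.1, 121.0, 116.7 and 126.2 CPM. Srebf2 had 136.6, 133.9, 180.1 and 158.6 CPM against 126.5, 123.3, 145.1 and 154.8 CPM.

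**Figure D2:**
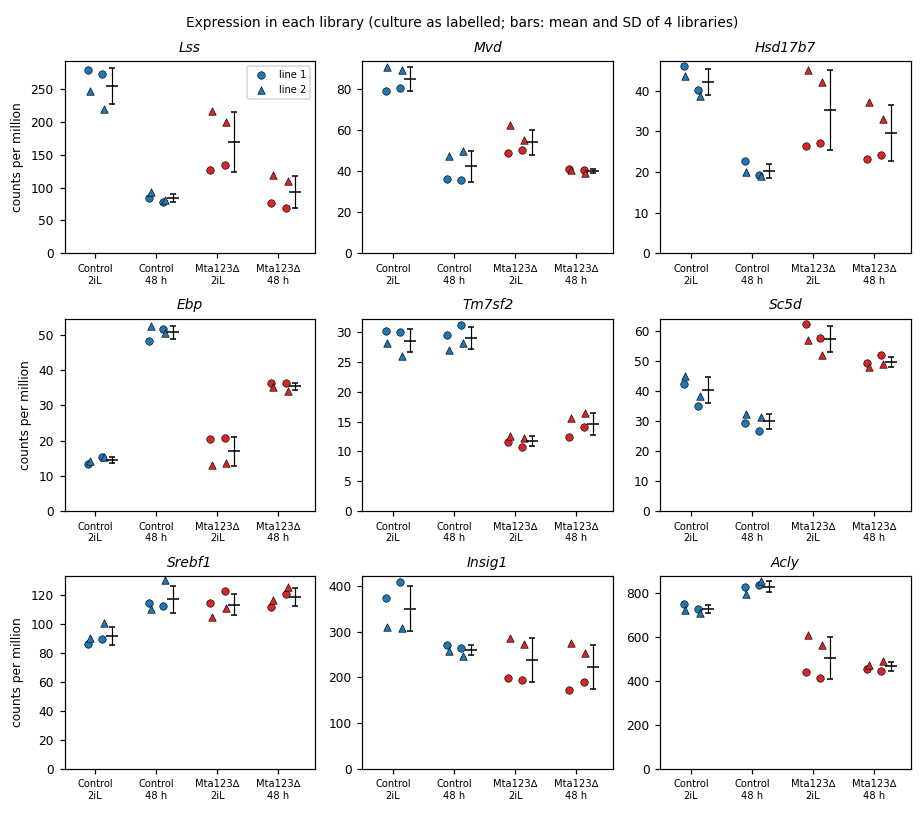
CPM (vertical axis, from 0) in each of the 16 libraries of the second set for 9 genes, by genotype and labelled culture (horizontal axis), with circles for line 1, triangles for line 2, and the mean and SD of 4 libraries beside them. In Lss, Hsd17b7 and Insig1 the Mta123∆ triangles lie above the circles under both labels, while Tm7sf2 lies between 10.7 and 16.4 CPM in all Mta123∆ libraries.

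Whether the change between labels differed between the genotypes was tested by the interaction, for which 4 genes were positive and 2 negative, where 12.5% and 10.6% of all 22973 genes tested were. Both counts lay near the shares over all genes, so that the number of calls does not set this pathway apart. The median over the 28 was 0.22, against 0.00 over all genes. Hsd17b7 (0.80 ± 0.25), Mvd (0.58 ± 0.15) and Dhcr7 (0.44 ± 0.15), enzymes that all were lower in the Control libraries labelled 48 h, had less negative changes in Mta123∆. Elovl6 had a larger positive change there (0.39 ± 0.11). Ebp rose less in Mta123∆ (-0.74 ± 0.18). Srebf1 rose in Control and not past the threshold in Mta123∆ (-0.29 ± 0.10, adjusted p = 0.049).

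For Dhcr7, the last reductase of the pathway, the 4 Control libraries labelled 2iL had 56.6, 62.8, 56.7 and 59.5 CPM, and the Mta123∆ libraries 33.1, 35.0, 46.2 and 37.9 CPM. Labelled 48 h, the Control libraries had 39.8, 38.4, 39.7 and 44.6 CPM and the Mta123∆ libraries 32.0, 31.9, 37.7 and 40.9 CPM. The Control level dropped towards that of Mta123∆, which stood low under both labels. Hsd17b7 had 26.3, 27.2, 45.0 and 42.3 CPM in Mta123∆ labelled 2iL and 23.3, 24.1, 37.4 and 33.2 CPM labelled 48 h, so that line 1 was low and line 2 high under both. Elovl6 had 298.3, 294.9, 314.4 and 297.4 CPM in Control labelled 2iL and 304.6, 317.3, 296.0 and 303.5 CPM labelled 48 h, without a separation between the labels. With line within genotype as a block, the interaction was positive for 12 genes and negative for 3, where 39.8% of all genes passed in either direction, adding among others Lss (0.74, adjusted p = 1.9e-05), Fdps (0.40) and Insig1 (0.33). The calls of Mvd, Ebp and Elovl6 held in each of 16 fits that leave out a library, whereas that of Hsd17b7 was lost in 9 and those of Dhcr7 and Srebf1 in 12. Only 3 of the 6 calls were left when Control library 1_1 or 2_1 labelled 2iL or 1_2 labelled 48 h was omitted. The same held for Mta123∆ library 1_1 or 1_2 labelled 2iL or 2_1 labelled 48 h. Spike-in scaling left 1, where 14.6% of all genes passed. Summed lines left 0, with 2 genes at an unadjusted p under 0.05, where 2.75% passed. Of the pluripotency markers, 6 of 8 naive genes were negative and 4 of 6 formative genes positive for the same interaction, and their part in it was not tested.

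The comparison of Mta123∆ with Control asked what loss of all MTA proteins did to the pathway. Under the label 2iL, 14 of the 28 genes were lower and 2 higher in Mta123∆, where 24.2% of all 21651 genes tested were lower and 27.1% higher, and the median over the 28 was -0.38, against 0.01 over all genes. Decreases came from each group of steps in the pathway, though not from every step. They were Acat2, Mvd and Fdps in the mevalonate arm, Sqle and Lss next, Tm7sf2, Msmo1 and Dhcr7 in the late steps, Insig1, Srebf2 and Stard4 among the regulators and carriers, and Acly, Acaca and Fasn in fatty acid synthesis. Sc5d, the late sterol desaturase, and Srebf1 were higher.

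Tm7sf2, a sterol reductase, had 30.2, 30.0, 28.1 and 26.0 CPM in Control labelled 2iL and 11.5, 10.7, 12.6 and 12.2 CPM in Mta123∆, the largest decrease of the 28 (log2 fold change -1.26 ± 0.08, adjusted p = 8.6e-06). Mvd stood at 79.2 to 90.9 CPM in Control and 49.0 to 62.3 CPM in Mta123∆ (-0.63 ± 0.09). Dhcr7 was lower by a log2 fold change of -0.61 ± 0.10, with the values given above. The 3 genes did not overlap between genotypes. Fdps, which makes farnesyl pyrophosphate, had 205.0, 196.2, 178.0 and 170.3 CPM against 98.1, 95.9, 140.2 and 150.4 CPM (-0.61 ± 0.15). Stard4 had 30.3, 30.0, 32.6 and 30.7 CPM against 14.0, 15.2, 28.9 and 22 CPM (-0.61 ± 0.21, adjusted p = 0.035). Lss had a log2 fold change of -0.57 ± 0.18 (adjusted p = 0.024). In the last 3 genes line 1 of Mta123∆ stood lowest and line 2 between it and Control, and of the 8 fits that leave out a library the call of Stard4 was lost in 6 and that of Lss in 3. Among the other decreases that of Msmo1 was lost in 5 and that of Acat2 in 4. Leaving out Control library 1_1 or 1_2 or Mta123∆ library 1_2 ended all 4 calls.

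Of the regulators, Insig1 was lower in Mta123∆ (-0.54 ± 0.15, adjusted p = 0.015) and Srebf2 as well (-0.40 ± 0.10, adjusted p = 0.0105), each without overlap. Srebf1 was higher (0.32 ± 0.07, adjusted p = 0.0049), at 105.3 to 123.1 CPM against 86.7 to 100.9 CPM, but not with spike-in scaling. With the libraries of a line summed, only Tm7sf2 and Mvd of the 16 passed, where 15.4% of all genes did, and 10 of the 28 had an unadjusted p under 0.05. Without line 1 of Control 5 passed, where 33.4% of all genes did. Of the naive pluripotency genes 5 of 8 were higher in Mta123∆ labelled 2iL, and of the formative genes 4 of 6 were lower and 1 higher. Naive sums were 418.1 to 544.0 CPM and formative sums 561.4 to 827.1 CPM. Fibroblast genes summed to 6.39 to 7.60 CPM against 1.23 to 2.55 CPM in Control, with 3 of 3 tested higher. Their part in the genotype differences was not tested.

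Under the label 48 h, 8 genes were lower and 4 higher in Mta123∆, where 23.4% of all 21079 genes tested were lower and 26.6% higher, and the median was -0.19. Spike-in scaling, which shifted the median of all genes by -0.18, gave 7 lower and 1 higher, where 36.9% of all genes passed. Of the 6 fatty acid synthesis genes Acly and Fasn were lower and Elovl6 was higher (log2 fold change 0.50), and of the 8 late sterol genes Cyp51, Tm7sf2 and Ebp were lower and Hsd17b7 and Sc5d higher. The call of Cyp51 was lost in 5 of the 8 fits that leave out a library. Acly had 829.0, 837.8, 796.7 and 855.1 CPM in Control labelled 48 h and 454.9, 446.6, 475.3 and 489.6 CPM in Mta123∆ (log2 fold change -0.82 ± 0.06, adjusted p = 9.1e-06). Fasn, the fatty acid synthase, had 919.5, 944.4, 790.9 and 983.5 CPM against 598.9, 579.2, 593.9 and 650.5 CPM (-0.58 ± 0.08). Both were lower in Mta123∆ under either label without overlap.

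Tm7sf2 had 29.5, 31.2, 27 and 28.2 CPM against 12.3, 14.1, 15.6 and 16.4 CPM (-0.98 ± 0.10). Ebp had 48.3 to 52.7 CPM against 34.2 to 36.4 CPM (-0.51 ± 0.06). Sc5d moved the other way, from 29.4, 26.7, 32.2 and 31.5 CPM to 49.6, 52.0, 48.0 and 49.1 CPM (0.74 ± 0.08). Hsd17b7 had 22.6, 19.2, 20 and 19.1 CPM against 23.3, 24.1, 37.4 and 33.2 CPM (0.55 ± 0.15, adjusted p = 0.015), with Mta123∆ line 2 well above line 1. Insig1 and Srebf1 overlapped between genotypes, with adjusted p-values of 0.23 and 0.76, and Srebf2 was lower (-0.28 ± 0.09, adjusted p = 0.021). With lines summed 5 genes passed, where 17.1% of all genes did, of which Tm7sf2, Ebp, Acly and Fasn were lower and Sc5d higher. The libraries under the 2 labels are separate but come from the same lines. Of the naive genes 6 of 8 were lower in Mta123∆ labelled 48 h, at sums of 1912 to 2837 CPM, and their part in these differences was not tested. Tm7sf2 and Sc5d were the late-step genes called in the same direction under both labels.

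**Figure D3:**
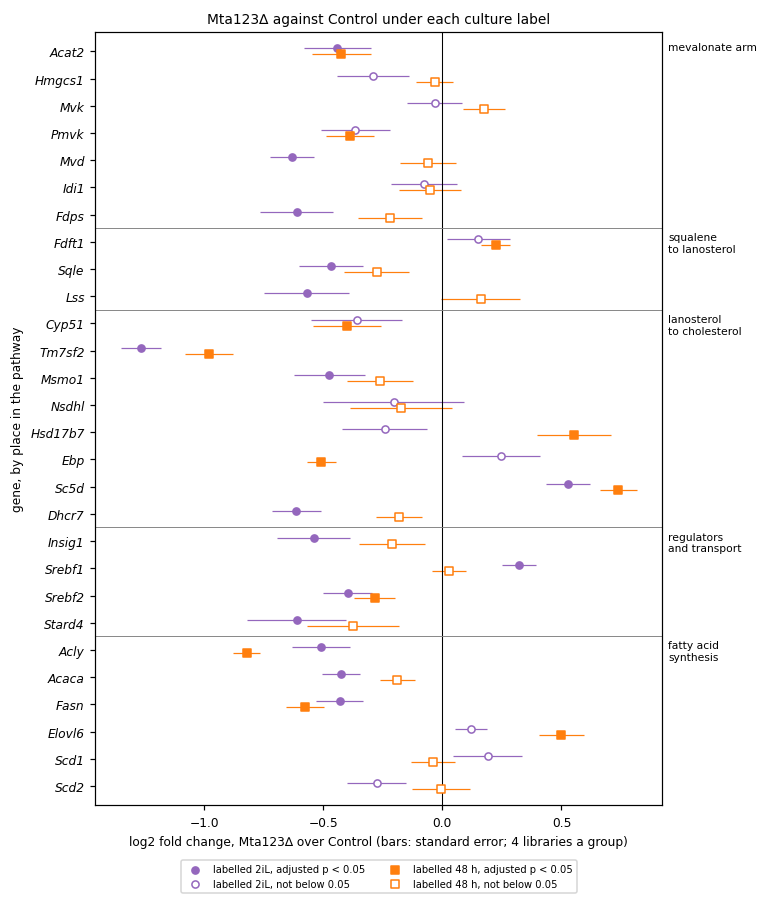
Log2 fold change of the 28 genes between Mta123∆ and Control (horizontal axis), by place in the pathway (vertical axis), in libraries labelled 2iL (circles) and labelled 48 h (squares), with standard errors, 4 libraries a group; filled symbols have an adjusted p under 0.05. Tm7sf2 lies farthest left, at -1.26 and -0.98, and Sc5d farthest right, at 0.53 and 0.74.

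The 2 lines of Mta123∆ differed in this pathway. Labelled 2iL, both libraries of line 2 lay above both libraries of line 1 in 24 of the 28 genes and below in 4, where 35% of all 21505 genes lay above and 36.3% below. Labelled 48 h, 22 lay above and 4 below, where 36.1% and 35.6% did. The median log2 ratio of line 2 to line 1 over the 28 was 0.47 and 0.29. The 2 Control lines were closer. Labelled 2iL, 5 of 28 lay above and 12 below, where 22.2% and 26.1% of all genes did, with a median of -0.05. Labelled 48 h, 7 lay above and 6 below, where 20.1% and 21.4% did, with a median of 0.05.

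The same 22 genes lay above in line 2 under both labels. Nsdhl, a sterol dehydrogenase of the demethylation steps, differed most, with line means of 44.9 and 100.9 CPM labelled 2iL and 40.4 and 71.0 CPM labelled 48 h. Stard4 had line means of 14.6 and 25.4 CPM, and 11.2 and 17.6 CPM. Cyp51, the lanosterol demethylase, had 114.5 and 194.3 CPM, and 106.2 and 144.6 CPM. Ebp, Sc5d and Elovl6 were lower in line 2 under both labels, and Tm7sf2 was higher in line 2, with line means of 11.1 and 12.4 CPM labelled 2iL and 13.2 and 16.01 CPM labelled 48 h.

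This moved the comparison with Control. With line 1 of Mta123∆ alone, 22 genes were lower and 4 higher than in Control labelled 2iL, with a median of -0.66, where 61.1% of all genes tested passed in either direction. With line 2 alone 11 were lower and 5 higher, with a median of -0.16, where 52% passed. Labelled 48 h, line 1 alone gave 18 lower and 3 higher, with a median of -0.38, where 56.8% of all genes passed, and line 2 alone gave 5 lower and 7 higher, with a median of 0.00, where 47.6% passed. Tm7sf2, Acly, Fasn and, in the other direction, Sc5d were called with each line alone under both labels. Lss was higher than in Control labelled 48 h with line 2 alone (0.45, adjusted p = 0.0021) and not past the threshold with line 1 alone (-0.20). Each line is 2 libraries, so that these comparisons describe the lines.

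Markers of trophoblast and of pluripotency moved with the lines. Summed CPM of 6 trophoblast genes ran from 400.8 to 442.3 in line 1 and from 99.99 to 108.9 in line 2 of Mta123∆ labelled 2iL, against 16.1 to 19.7 in Control, and all 6 genes were higher in Mta123∆. Labelled 48 h the sums were 730.6 to 764.8 and 166.2 to 177.9, against 72.3 to 91.9 in Control, and 4 of the 6 genes were higher and 1 lower. Krt8 and Krt18, keratins of simple epithelium, carried most of this, at means of 97.8 and 95.2 CPM in Mta123∆ labelled 2iL, while Cdx2 and Elf5, which define the lineage, had means of 2.04 and 2.26 CPM. No gene of the list was at 0 in any library. Naive sums in lines 1 and 2 were 528.4 to 544.0 and 418.1 to 440.5 CPM labelled 2iL, and 1912 to 1966 and 2834 to 2837 CPM labelled 48 h. Formative sums were 561.4 to 604.1 and 707.0 to 827.1 CPM, and 270.2 to 292.5 and 173.4 to 186.1 CPM. The lines thus stood in the opposite order in both lists under the other label. Sums of 2 general pluripotency genes were lower in line 1 under both labels, at 290.9 to 305.6 against 491.0 to 507.5 CPM and 463.9 to 512.1 against 596.5 to 625.2 CPM. Sums of 6 primitive endoderm genes were 25.8 to 26.7 against 16.6 to 17.5 CPM, and 18.1 to 19.95 against 20.5 to 21.6 CPM. Against Control, 2 of these 6 were higher and 2 lower labelled 2iL, and 3 higher and 1 lower labelled 48 h. Their part in the lipid gene differences was not tested.

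**Figure D4:**
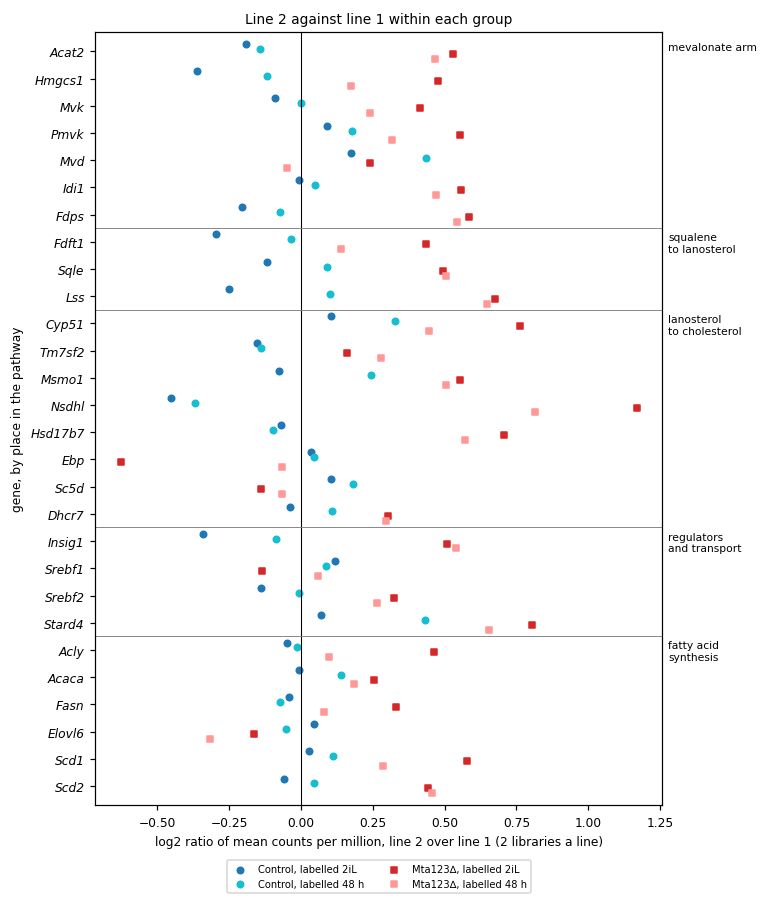
Log2 ratio of mean CPM of line 2 to line 1 (horizontal axis), by place in the pathway (vertical axis), for Control (circles) and Mta123∆ (squares) under each label, 2 libraries a line. Squares lie right of 0 for most genes, up to 1.17 for Nsdhl, and circles lie on both sides.

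Mta1 loss was compared within its own series. None of the 28 genes passed in edgeR or DESeq2, nor had any an unadjusted p under 0.05 in either, where 0% of all 14561 genes passed in either direction and 50 genes had an unadjusted p under 0.05. The largest log2 fold change was that of Fdps, 0.39 ± 0.34. Insig1 had 213.9, 193.0 and 329.8 CPM in Mta1_flox/flox and 245.9, 280.5 and 323.5 CPM in Mta1_del/del. Srebf1 had 224.0, 172.4 and 251.6 CPM against 191.0, 215.6 and 248.2 CPM, and Srebf2 251.8, 226.7 and 217.6 CPM against 274.8, 239.9 and 224.4 CPM. All 3 overlapped. Mta1 itself, at 72.6 to 104.8 CPM against 39.5 to 47.9 CPM, did not pass either (log2 fold change -0.97 ± 0.18, adjusted p = 0.99997), so that a gene of this series could change by that much and not be called. With the replicate number as a block 3 of the 28 had an unadjusted p under 0.05 and none passed.

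Mta2 loss was compared with Mta2_WT. Of the 28 genes 9 were lower and 8 higher in Mta2_KO, where 24.3% of all 15602 genes tested were lower and 23.5% higher, and the median was 0.00. All 3 genes between squalene and lanosterol were higher, and of the 8 late sterol genes 4 were lower and 2 higher. Dhcr7 had 72.2, 75.7 and 73.4 CPM in Mta2_WT and 40.3, 35.1 and 39.9 CPM in Mta2_KO (log2 fold change -0.94 ± 0.06, adjusted p = 1.9e-06). Elovl6 had 956.6, 919.4 and 918.1 CPM against 520.1, 542.8 and 523.2 CPM (-0.82 ± 0.05). Hmgcs1 had 455.4, 473.5 and 407.6 CPM against 252.5, 255.0 and 263.1 CPM (-0.79 ± 0.06). These 3 alone of the 28 passed when all 18 libraries of the set were fitted together, where 16.1% of all genes passed, so that each higher call was lost there.

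Smaller changes included Hsd17b7, at 27.2, 27.2 and 27.8 CPM against 19.0, 20.6 and 19.0 CPM (-0.49 ± 0.06), and Pmvk, the phosphomevalonate kinase, at 39.7, 39.1 and 39.4 CPM against 26.7, 31.4 and 28.9 CPM (-0.44 ± 0.06). Srebf1 was higher, at 67.2, 64.3 and 59.8 CPM against 85.3, 87.7 and 87.3 CPM (0.44 ± 0.05), and so was Insig1, at 214.5, 200.6 and 202.5 CPM against 248.5, 272.0 and 247.5 CPM (0.31 ± 0.05). Neither gene overlapped between groups. Srebf2 had 109.4, 97.3 and 75.6 CPM against 109.0, 105.5 and 110.5 CPM and did not pass. Of the naive pluripotency genes 6 of 8 were lower and 1 higher in Mta2_KO, with sums of 3325 to 3441 CPM against 4523 to 4832 CPM. Trophoblast genes summed to 134.7 to 142.2 CPM against 86.3 to 95.2 CPM, although of the 6 tested 2 were higher and 3 lower. The part of either in these differences was not tested.

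In Mta3_del/del 4 of the 28 genes were higher and none lower, where 8.32% of all 15522 genes tested were higher and 7.84% lower. The median was 0.25, against -0.01 over all genes. With so few calls, these counts do not set this pathway apart. Fasn had 1122, 1023 and 1068 CPM in Mta3_flox/flox and 1963, 1886 and 1910 CPM in Mta3_del/del (log2 fold change 0.84 ± 0.10, adjusted p = 0.014). Srebf1 had 126.7, 102.4 and 124.6 CPM against 217.2, 138.0 and 182.6 CPM (0.61 ± 0.16, adjusted p = 0.042). Neither overlapped. Sqle, the squalene epoxidase, had 105.3, 83.6 and 111.2 CPM against 131.6, 166.4 and 126.1 CPM (0.50 ± 0.14, adjusted p = 0.048). Fdft1, the squalene synthase, had 164.1, 131.0 and 158.3 CPM against 196.7, 225.8 and 216.0 CPM (0.49 ± 0.11, adjusted p = 0.026).

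With all 18 libraries fitted together 5 genes passed, all higher, where 17.2% of all genes passed. The calls depended on single libraries. Without Mta3_del/del library 1 none passed, 1 passed without Mta3_del/del library 3, Mta3_flox/flox library 2 or Mta3_flox/flox library 3, and 2 passed without Mta3_flox/flox library 1. Insig1, at 283.1, 285.8 and 342.9 CPM against 282.8, 388.4 and 315.6 CPM, and Srebf2, at 193.2, 156.1 and 244.5 CPM against 200.6, 228.4 and 228.3 CPM, overlapped between the groups. Fibroblast genes were higher in Mta3_flox/flox, at summed levels of 12.1 to 58.9 CPM against 5.69 to 6.58 CPM, with 2 of 4 past the threshold, and their part in these differences was not tested. Of that list 1 gene was at 0 in a library of Mta3_del/del.

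**Figure D5:**
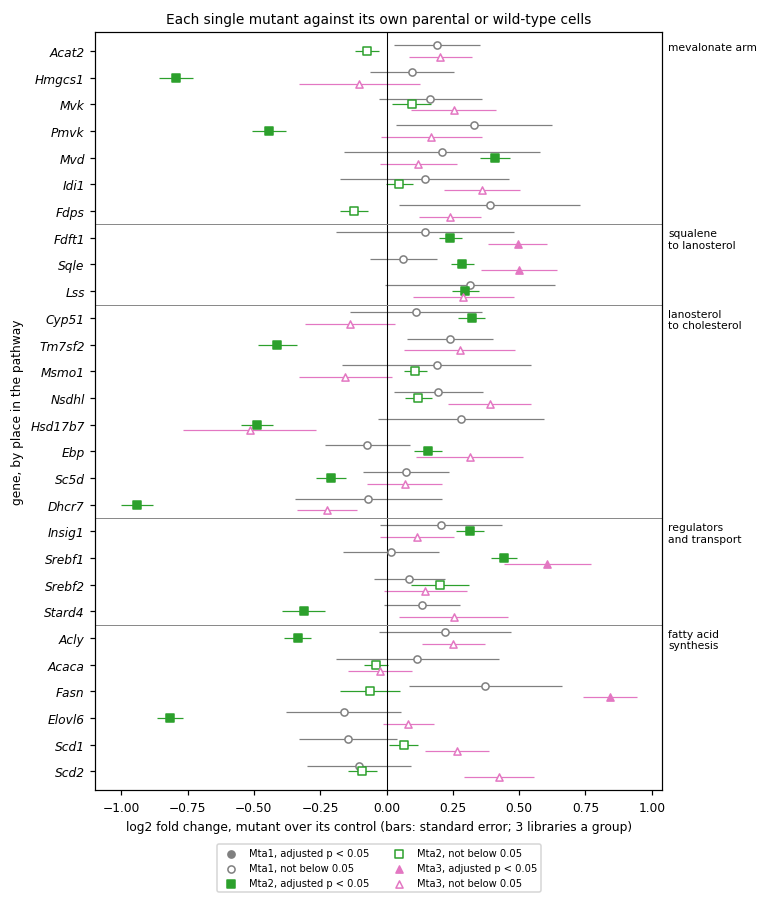
Log2 fold change of the 28 genes in each single mutant over its own control (horizontal axis), by place in the pathway (vertical axis), for Mta1 (circles), Mta2 (squares) and Mta3 (triangles), with standard errors, 3 libraries a group; filled symbols have an adjusted p under 0.05. The 17 filled squares lie on both sides of 0, the 4 filled triangles lie right of 0, and no circle is filled.

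A further 33 genes of lipid metabolism were read beside the 28. In Control labelled 48 h against 2iL 11 were higher and 10 lower, where 29.5% and 29% of all genes were. Soat1, which esterifies cholesterol for storage, fell from 104.4 ± 21.0 to 16 ± 2.92 CPM (log2 fold change -2.68 ± 0.16). Acsl4, an acyl-CoA ligase, had a log2 fold change of -1.81 ± 0.06, Mid1ip1, an activator of acetyl-CoA carboxylase, one of -1.78 ± 0.14, and Acacb, the mitochondrial form of that carboxylase, one of 1.73 ± 0.11. In Mta123∆ 6 were higher and 7 lower, against 12.4% and 10%. Npc2, a lysosomal sterol carrier (1.37 ± 0.12), Acacb (1.26 ± 0.13) and Mylip, a sterol-induced ubiquitin ligase (0.62 ± 0.17), were higher and Fads2, a desaturase (-1.27 ± 0.15), was lower.

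Soat1 stood at 59.0 ± 16.4 CPM in Mta123∆ labelled 2iL and 69.4 ± 22 CPM labelled 48 h, so that its drop in Control had no counterpart there (interaction 2.93 ± 0.33, adjusted p = 1.6e-05). For the interaction 6 of the 33 were positive and 5 negative, against 12.5% and 10.6% of all genes, and Acsl4 (1.63 ± 0.13), Mid1ip1 (1.498 ± 0.23) and Pgd of the pentose phosphate path (-0.98 ± 0.21) came next. Against Control, 10 were higher and 10 lower in Mta123∆ labelled 2iL, against 27.1% and 24.2% of all genes, and 10 higher and 12 lower labelled 48 h, against 26.6% and 23.4%. Mid1ip1 was lower under both labels, at 5.45 ± 0.614 against 35.4 ± 4.05 CPM (-2.68 ± 0.12) and 4.44 ± 0.863 against 10.3 ± 2.20 CPM (-1.19 ± 0.19). Nr1h3, which encodes the sterol sensor LXR alpha, was higher under both (1.69 ± 0.28 and 1.21 ± 0.26). Labelled 2iL, Acsl4 was lower (-1.06 ± 0.11) and Pgd higher (1.02 ± 0.14), and labelled 48 h, Soat1 was higher (2.12 ± 0.23) and Acss2, a cytosolic acetyl-CoA synthetase, lower (-0.78 ± 0.15).

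In the Mta1 series none of the 33 passed. In the Mta2 series 13 were higher and 7 lower, against 23.5% and 24.3% of all genes, led by Mid1ip1 (-1.07 ± 0.18), Acacb (-0.99 ± 0.08), Aacs, an acetoacetyl-CoA synthetase (0.76 ± 0.06), and Abcg1, a sterol exporter (0.74 ± 0.11). In the Mta3 series 8 were higher and 2 lower, against 8.32% and 7.84%, led by Pgd (1.17 ± 0.20), Mid1ip1 (-1.15 ± 0.28), Stard5 (-0.99 ± 0.22) and Aacs (0.76 ± 0.15). Mid1ip1 was thus lower in each comparison of a mutant with its control in which any gene passed.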

How the data were processed

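RNA-seq of 34 libraries was analysed from the count tables the authors deposited, in which each value is a whole-number count of reads per gene, not normalised. The submitters' processing notes name Trim Galore, TopHat2, featureCounts and the builds GRCm38 and mm10. The strand setting and the treatment of reads that map to several places are not given in the sources used here, nor which of the 2 library kits served which sample. The second set of 16 libraries (paired-end) and the single-mutant set of 18 (single-end) were normalised separately and never compared by a test. The 92 spike-in RNAs of the second set were left out of library sizes and tests.

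Genes were filtered with filterByExpr, scaled by TMM and tested with edgeR 4.0.16 (quasi-likelihood test, two-sided, R 4.3.3) on the compared groups alone, with an interaction of genotype and culture over the 16 libraries. A gene passed at an adjusted p (Benjamini-Hochberg, over all genes tested) under 0.05. The standard error is the log2 fold change divided by the square root of F. RPKM used exon lengths of GENCODE. The script was tested on simulated data. Alternatives were DESeq2 1.42.0, its size factors in edgeR, no filter on low counts, the replicate number as a block, the study's thresholds (adjusted p under 0.05 and a log2 fold change over 1), a fit of all libraries of a set, libraries of a line summed, spike-in scaling, and each library left out. Blocking by line and leaving out a line were chosen after seeing the data.

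Replicate numbers paired the cultures, since the same lines carry both labels (correlations of same-numbered deviations 0.358 to 0.436 in Control and 0.623 to 0.675 in Mta123∆), and the Mta1 series (0.435 to 0.736). In the other comparisons they gave no pairing (-0.264 to 0.441). Libraries of a line resemble each other and are not independent, so that p-values of the second set may be too small. The members and lists were chosen with earlier results of these data known. Values in every library are given for up to 6 members per comparison with the largest change among those passing, for Insig1, Srebf1 and Srebf2, and for members whose interaction passed, and up to 4 further genes of lipid metabolism are named per comparison by the same measure.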

Additional observations from a re-analysis of the deposited data

Results flagged for a closer look

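Among 112 sets of 4 libraries, each a gene in a group, 2 held a library far from the other 3, where chance flags about 1 in 20 and thus 5.6. Mvk had 44.65 CPM in Control library 1_1 labelled 2iL, above the others at 39.8 to 40.5 CPM. Msmo1 had 233.7 CPM in Control library 2_2 labelled 2iL, below the others at 259.3 to 264.0 CPM.

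The difference between genotypes in the change between labels passed the interaction test (edgeR, adjusted p under 0.05) in 6 genes. Of these, 4 were positive and 2 negative, where 12.5% and 10.6% of all 22973 genes tested were. The number of calls therefore does not set this pathway apart. With the libraries of a line summed 0 passed, where 2.75% of all genes did, and with spike-in scaling 1, where 14.6% did. With line within genotype as a block 12 were positive and 3 negative, where 39.8% of all genes passed in either direction. The difference was 0.5805 for Mvd, 0.8037 for Hsd17b7, 0.4402 for Dhcr7 and 0.3883 for Elovl6. For Ebp it was -0.7447 and for Srebf1 -0.2863, on the log2 scale.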

How the results depend on the processing

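The number of the 28 genes that passed, 25 for the culture change in Control, 6 in Mta123∆, 16 and 12 for Mta123∆ against Control labelled 2iL and 48 h, 6 for the interaction, 0 for Mta1, 17 for Mta2 and 4 for Mta3, moved as follows. With the study's thresholds it was 3, 1, 1, 0, 0, 0, 0 and 0 in that order. Over all genes tested, 5015, 2035, 4470, 4218, 2993, 0, 1770 and 941 passed them. With the libraries of a line summed it was 0 in Mta123∆, 2 and 5 against Control and 0 for the interaction, where 4, 10, 6 and 2 genes had an unadjusted p under 0.05. Of all genes, 0%, 15.4%, 17.1% and 2.75% passed in these fits. Spike-in scaling gave 12 in Control and 1 for the interaction, where 45.5% and 14.6% of all genes passed. It turned the log2 fold change of Scd2 in Control to 0.0105. DESeq2 gave 10 for the culture change in Mta123∆, where 6217 of 21503 genes tested passed. A fit of all libraries gave 12 for that change, where 7059 of 22973 genes passed, and 3 for Mta2, where 16.1% of all genes passed. The replicate block gave 22 for the culture change in Mta123∆ and 15 for the interaction, where 42.5% and 39.8% of all genes passed. By line it gave 23 in Mta123∆, where 10252 of 21505 genes passed. Elsewhere the block moved no count by over 1.5 times.

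Leaving out line 1 of Mta123∆ gave 21 for its culture change, and leaving out line 2 gave 16 there, 26 and 21 against Control and 12 for the interaction. Of all genes, 8998 of 21828 passed without line 1. Without line 2, 10019 of 21970 passed for the culture change, 61.1% and 56.8% against Control, and 7351 of 23833 for the interaction. Leaving out line 1 of Control gave 5 labelled 2iL and 0 for the interaction (4 at an unadjusted p under 0.05), and leaving out line 2 gave 6 labelled 48 h and 1 for the interaction. Of all genes, 33.4% and 2344 of 23932 passed without line 1, and 7716 of 22372 and 2963 of 23971 without line 2. Leaving out single libraries gave 23 to 25, 4 to 7, 12 to 18, 9 to 14, 3 to 7, 0 to 0, 15 to 20 and 0 to 5. Of the values of single genes that passed, 705 kept direction and call over the alternatives, 163 kept direction alone and 1 reversed.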
